A study of Mus musculus with 4 samples.

Results

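A set of 10 genes that mark neutrophils were examined in mouse aortas with and without Smad4 in smooth muscle. They were the cytosolic proteins S100a8 and S100a9, the receptors Csf3r and Cxcr2, and the products of granules and of late maturation Ngp, Ltf, Camp, Lcn2, Mmp8 and Retnlg. All probe sets paired with exactly 1 of these 10 symbols were taken. That gave 9 probe sets for 9 genes, 1 each, out of 45101 probe sets and 18193 genes with a probe set of a single symbol. Retnlg, a resistin-like protein of neutrophils, had none, so its expression was not analysed here. The genes were put together with the difference between the genotypes on these arrays already in view, so their values for that difference are a description, without a test.

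RNA came from the aortas of Smad4-KO mice, in which Smad4 was deleted in smooth muscle cells, and of WT littermates, all 6 weeks old. Each of the 4 Affymetrix arrays (2 per genotype) took 400 ng of RNA, pooled from 3 to 5 vessels, so an array stands for a pool and not for a mouse. The labels do not give the promoter of the Cre, the sex of the mice or whether the vessels were rinsed of blood. Smad4 is the common partner of the Smad proteins that carry TGF-beta and BMP signals. Whole vessels also hold endothelial, adventitial and blood cells.

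Neutrophils are short-lived phagocytes of the blood that are made in the bone marrow and enter tissue during inflammation. They make their granule proteins in waves, first those of primary granules in promyelocytes, then those of secondary and tertiary granules in myelocytes and later stages, while S100a8, S100a9 and the surface receptors stay high in the mature cell. A healthy arterial wall holds few of them. In bulk tissue, more cells of a type and more RNA per cell cannot be told apart.

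Over all probe sets the median signal was 111 and 132 in WT against 133 and 137 in Smad4-KO. The brightest Smad4 probe set read 4394 and 3819 in WT, compared with 2676 and 3580 in Smad4-KO (adjusted p = 0.626). On another bright Smad4 probe set the genotypes overlapped, WT reading 4306 and 3550 while Smad4-KO read 2018 and 4166. The dimmest Smad4 probe set did not overlap and had the largest fall (log2 difference -0.90). It read 1213 and 1778 in WT against 658 and 942 in Smad4-KO. The arrays also differed in ways that cross the genotypes. The 3' to 5' ratio of a labelling control, the Dap spike, stood at 10.02 (WT replicate 1) and 14.1 (Smad4-KO replicate 2), but at 2.96 and 3.62 on the other arrays. Arrays numbered 1 gave signals of 15192 (WT) and 6223 (Smad4-KO) for the brightest Xist probe set, and arrays numbered 2 gave 90.0 and 135. Each result on the 9 genes is therefore also given within those pairs of arrays. The smooth muscle marker Cnn1, an actin-binding protein, read 9919 and 10320 in WT against 1589 and 1809 in Smad4-KO. Between WT replicates, the SD of the log2 difference was 1.43 for probe sets with a mean signal of 16 to 64 and 0.76 for those at 64 to 256. Between Smad4-KO replicates it was 1.66 and 1.15 for the same ranges, and 0.95 at 256 to 1024. Signals under 64 therefore carry little information on size, and Smad4-KO signals above 64 were noisier than WT ones.

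S100a8 and S100a9 form the calprotectin heterodimer, which binds calcium and zinc and is abundant in neutrophil cytosol. The S100a8 probe set (1419394_s_at) gave signals of 762 and 190 on WT replicates 1 and 2, and of 6061 and 10042 on Smad4-KO replicates 1 and 2. Its log2 difference, Smad4-KO minus WT, was 4.36 ± 0.71 (standard error from limma, 2 and 2 arrays), a ratio of 20.5. The S100a9 probe set (1448756_at) read 487 and 119 in WT against 5985 and 6534 in Smad4-KO, which is a log2 difference of 4.70 ± 0.68 and a ratio of 26.0. The Smad4-KO pools lay close together for S100a9, whereas the WT pools were 4.09 times apart, with replicate 1 the higher. For S100a8 they were 4.01 times apart in the same order. The lower Smad4-KO array was still 7.96 times the higher WT array for S100a8 and 12.3 times for S100a9.

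Csf3r is the receptor of G-CSF, the cytokine that drives the making of neutrophils. Its probe set (1418806_at) read 60.1 and 36.6 in WT against 989 and 1078 in Smad4-KO, which is a log2 difference of 4.46 ± 0.36. Both WT signals were under 64, and with such signals raised to 64 the ratio was at least 16.1, a bound on the measured ratio alone. Csf3r had the widest gap of the 9 genes, its lower Smad4-KO array standing at 16.5 times its higher WT array. Cxcr2, the receptor through which neutrophils follow chemokines of the Cxcl1 and Cxcl2 type, was dim on every array. Its probe set (1421734_at) read 6.54 and 3.49 in WT against 94.8 and 80.8 in Smad4-KO. The log2 difference of 4.19 shrank to 0.45 with signals under 64 raised to 64, so only a ratio of at least 1.37 is given for Cxcr2. It lay under the filter on low signal and was not in the fit.

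Lcn2, the iron-siderophore carrier of secondary granules, had the largest difference of the granule genes among the 9. Its probe set (1427747_a_at) read 118 and 58.8 in WT against 2106 and 1453 in Smad4-KO, which is a log2 difference of 4.39 ± 0.45 and a ratio of at least 20.1 with the 64 floor. Lcn2 is also made by epithelial cells and by macrophages. Ngp, a secondary granule protein related to the cathelicidins, was the granule gene with both WT signals above 64: its probe set (1418722_at) read 194 and 97.7 in WT against 1048 and 736 in Smad4-KO. The log2 difference of Ngp was 2.67 ± 0.44, a ratio of 6.37. Mmp8, the neutrophil collagenase, read 77.4 and 49.3 in WT against 335 and 303 in Smad4-KO (1449366_at), which is a log2 difference of 2.37 ± 0.35 and a ratio of at least 4.53. For each of these genes both Smad4-KO arrays lay above both WT arrays, with the lower of them at 12.3 times (Lcn2), 3.79 times (Ngp) and 3.91 times (Mmp8) the higher WT array.

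The remaining granule genes were less certain in size. Ltf, the iron-binding lactoferrin, read 64.6 and 56.9 in WT against 359 and 145 in Smad4-KO (1450009_at). Its log2 difference of 1.91 ± 0.49 was the smallest of the 9, and its Smad4-KO pools were 2.48 times apart. Camp, the precursor of the cathelicidin antimicrobial peptide, read 126 and 4.84 in WT against 388 and 330 in Smad4-KO (1419691_at). The log2 difference of Camp was 3.86 ± 1.45 and rested on WT replicate 2: it was 1.50 without that array and 6.21 without WT replicate 1. With the 64 floor the Camp ratio was at least 3.98. The Smad4-KO pools differed little for Camp, at 1.17 times, and the WT pools 26.1 times.

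**Figure D1:**
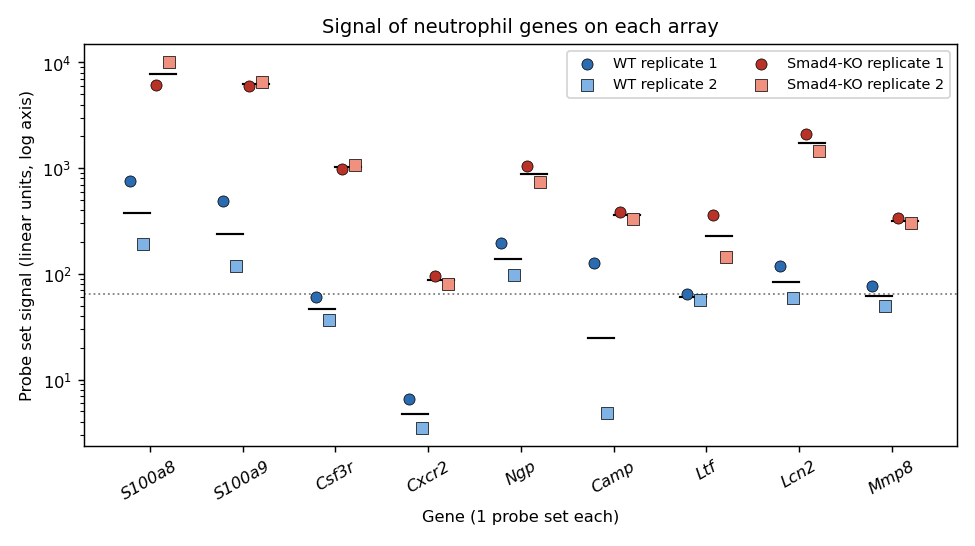
Probe set signal (linear units on a log axis) of the 9 neutrophil genes on each of the 4 arrays, with WT in blue, Smad4-KO in red, bars at the geometric mean of a genotype and a dotted line at 64. Both Smad4-KO arrays lie above both WT arrays for each gene, by 2.24 times for Ltf up to 16.5 times for Csf3r, and WT replicate 2 reads only 4.84 for Camp.

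Both Smad4-KO arrays lay above both WT arrays for 9 of 9 genes, where 24.5% of all 18193 genes did so. Of the 8 genes in the limma fit, 6 passed an adjusted p of 0.05 and 0 were called lower, where 4.92% of the 13645 genes tested were called higher. The pair that did not pass was Ltf and Camp. The genes were chosen on this contrast, so nothing is read from either count. The count fell to 0 with a block for the labelling pairs, without WT replicate 2, or with dim genes kept, and to 2 when each probe set was tested singly. The median log2 difference of the 9 genes was 4.19, against 0.01 over all genes with a probe set. When arrays were centred on their medians, the median difference of all genes tested became -0.16 and that of the 9 genes 4.04. With signals under 64 raised to 64, the median of the 9 genes was 2.67.

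Because the genotypes did not overlap for any of the 9 genes, the sign was the same in every pair of arrays by construction, and the sizes are given here. In the arrays with a high 3' to 5' ratio, Smad4-KO replicate 2 exceeded WT replicate 1 by a median log2 difference of 3.62 (range 1.16 to 4.17). In those with a low ratio, Smad4-KO replicate 1 exceeded WT replicate 2 by 4.76 (range 2.66 to 6.32). In the arrays with high Xist, numbered 1, the median was 2.99 (range 1.62 to 4.16), and in those with low Xist, numbered 2, it was 4.63 (range 1.35 to 6.09). The comparisons against WT replicate 2 gave the larger medians.

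**Figure D2:**
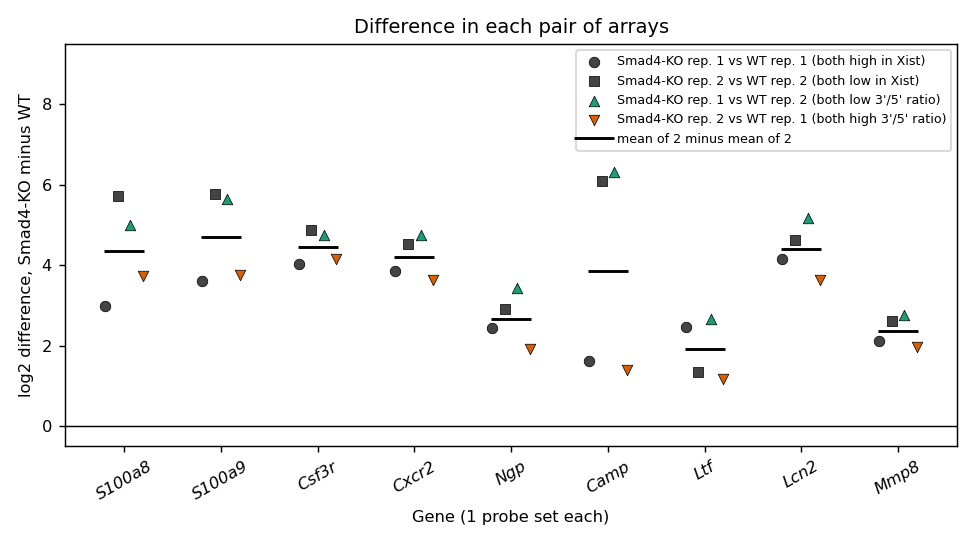
Log2 difference, Smad4-KO minus WT, of the 9 neutrophil genes in each of the 4 pairings of a Smad4-KO array with a WT array, with a bar at the difference of the genotype means. All points lie above 0, from 1.16 for Ltf to 6.32 for Camp, and Camp splits by the WT array it is set against.

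The pools of a genotype also differed from each other, a measure that the choice of genes did not use. WT replicate 1 read higher than WT replicate 2 for 9 of 9 genes, against 50.8% of all genes, with a median log2 difference of 0.99 (range 0.18 to 4.70). The median of all genes was 0.01. At least 1 WT signal was under 64 for 6 of the 9 genes, among them Camp at the top of the range. Other lists shared this WT order: T and B cell markers (8 of 8), the S100 family (11 of 11, with 3 under 64 on every array) and further cytosolic and enzyme genes (13 of 15). Further surface receptors (5 of 12), eosinophil and mast cell markers (4 of 10) and smooth muscle markers (3 of 8) mostly did not. In Smad4-KO the order depended on the gene. Smad4-KO replicate 1 was the higher for 6 genes, namely the granule genes Ngp, Ltf, Camp, Lcn2 and Mmp8 and the receptor Cxcr2, with Ltf differing most (1.31 on the log2 scale). Smad4-KO replicate 2 was the higher for S100a8, S100a9 and Csf3r, by 1.66, 1.09 and 1.09 times. Of all genes, 52.6% were higher on Smad4-KO replicate 1. With 1 array per pool, a difference between pools has no replicate and was not tested. Of the red cell markers, 5 of 8 were higher on WT replicate 1 and 8 of 8 on Smad4-KO replicate 1. Eosinophil and mast cell markers were also higher on Smad4-KO replicate 1, for 10 of 10. However, 4 of these 10 and 4 of the 8 red cell markers were under 64 on every array. The part of red cells or other cell types in the order of the neutrophil genes was not tested.

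**Figure D3:**
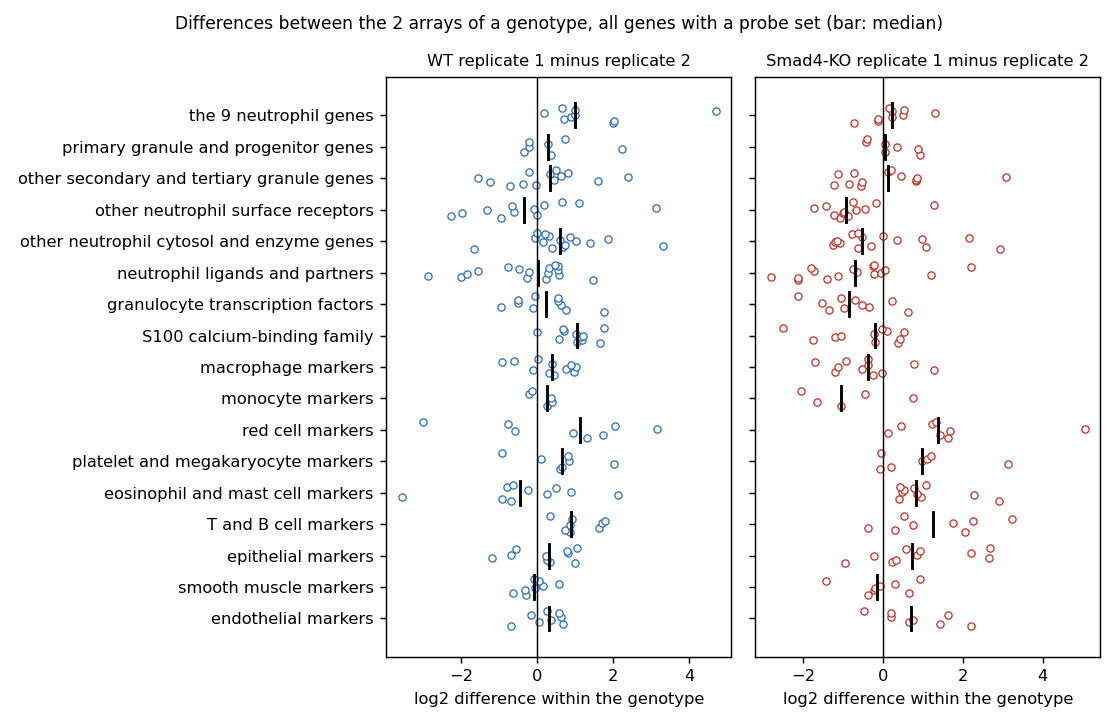
Log2 difference between replicate 1 and replicate 2 within WT (left) and within Smad4-KO (right) for every gene with a probe set in each list, with a bar at the median of the list. The 9 neutrophil genes lie to the right of 0 in WT (median 0.99) and on both sides of it in Smad4-KO (median 0.23), where other neutrophil surface receptors have a median of -0.92 and red cell markers one of 1.38.

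The neutrophil genes lie in part beside each other in the genome. In the RefSeq annotation, S100a8 and S100a9 are adjacent protein-coding genes of chromosome 3. Camp, Ngp and Ltf follow each other on chromosome 9 with 8 and 20 protein-coding genes between them. The 250 bases before the start site were taken from RefSeq (GRCm38.p6) for 10 of 10 genes and searched on both strands for a form of the site of C/EBP factors (TTGCNNAA), which drive granulocyte genes, and for the core of the site of PU.1 (GAGGAA), a myeloid factor. The first was present in 6 of 10, where 9.56% of 32851 promoters hold it, and the second in 6 of 10, where 23.3% do. S100a8, Csf3r, Cxcr2 and Camp lacked the first, S100a9, Ngp, Camp and Retnlg the second, and no copies of both overlapped. A match is a run of letters, not a bound site. The promoters of 6 genes are shown because they hold 2 copies of a motif (Ngp, S100a8), both motifs (Ltf, Lcn2, Mmp8), or belong to the adjacent S100 pair. They are Ngp at chr9:110419558-110419807 (+ strand), Ltf at chr9:111019042-111019291 (+ strand), Lcn2 at chr2:32387740-32387989 (- strand), Mmp8 at chr9:7558179-7558428 (+ strand), S100a8 at chr3:90668821-90669070 (+ strand) and S100a9 at chr3:90695722-90695971 (- strand), written 5′ to 3′ on the strand of the gene with the motifs in capitals.
Ngp: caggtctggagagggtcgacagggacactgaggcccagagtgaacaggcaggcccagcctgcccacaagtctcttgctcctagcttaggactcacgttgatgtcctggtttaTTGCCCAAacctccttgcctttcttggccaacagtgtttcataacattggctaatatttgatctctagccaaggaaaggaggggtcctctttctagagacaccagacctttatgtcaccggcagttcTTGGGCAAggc
Ltf: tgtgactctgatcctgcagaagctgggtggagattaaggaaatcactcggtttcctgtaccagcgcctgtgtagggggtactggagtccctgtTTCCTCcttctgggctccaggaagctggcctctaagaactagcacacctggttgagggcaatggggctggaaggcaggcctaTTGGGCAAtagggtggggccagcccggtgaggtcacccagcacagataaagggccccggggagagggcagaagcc
Lcn2: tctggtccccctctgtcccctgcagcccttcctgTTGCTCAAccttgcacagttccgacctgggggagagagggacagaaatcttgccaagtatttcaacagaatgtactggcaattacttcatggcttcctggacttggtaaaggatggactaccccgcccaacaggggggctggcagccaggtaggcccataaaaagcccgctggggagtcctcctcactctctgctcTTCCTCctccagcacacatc
Mmp8: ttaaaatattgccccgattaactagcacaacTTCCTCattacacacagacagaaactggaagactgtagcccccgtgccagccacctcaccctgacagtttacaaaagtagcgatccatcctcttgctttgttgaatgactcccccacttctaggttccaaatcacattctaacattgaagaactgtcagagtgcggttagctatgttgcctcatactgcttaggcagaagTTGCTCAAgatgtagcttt
S100a8: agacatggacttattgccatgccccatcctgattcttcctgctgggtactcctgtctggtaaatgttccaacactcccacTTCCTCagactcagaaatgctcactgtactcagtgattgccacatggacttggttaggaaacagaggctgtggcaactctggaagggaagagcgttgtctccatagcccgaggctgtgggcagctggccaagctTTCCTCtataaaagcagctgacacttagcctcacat
S100a9: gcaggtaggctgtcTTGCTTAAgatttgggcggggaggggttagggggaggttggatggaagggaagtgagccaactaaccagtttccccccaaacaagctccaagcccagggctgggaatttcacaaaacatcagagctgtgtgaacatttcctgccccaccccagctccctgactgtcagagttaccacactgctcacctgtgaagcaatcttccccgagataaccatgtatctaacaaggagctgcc
In Ngp the C/EBP-type letters begin 138 and 11 bases before the start site, in Ltf 75 bases, and in Mmp8 19 bases before it. In S100a8 the PU.1-type letters begin 170 and 36 bases before the start site, in Ltf 157 bases, and in Lcn2 20 bases before it.

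Other genes of neutrophils were set beside all genes tested. These lists, and those below, were chosen with earlier results of these data known, so their counts are a description and not independent support. The filter on low signal used all 4 arrays. Some genes dim in WT, such as Mcemp1 (29.5 and 26.5), were thus tested only because their Smad4-KO signals were high. Of 56 further neutrophil genes, 47 had a probe set and 39 were tested, of which 23 rose and 0 fell. Among all genes tested, 4.92% rose and 1.39% fell. The median log2 difference of the 39 was 2.75, against -0.01 for all genes tested. The count was 0 with a block for the labelling pairs, without WT replicate 2, or with dim genes kept, 11 without WT replicate 1, and 5 when each probe set was tested singly. The calls of single genes given from here on ended under the first 3 of these settings too. Many ended under further settings, also where no number is given with the gene. Mpo lost its call under 5 of 13 alternatives, and Cybb, Lyz2 and Ncf1 each under 5 of 14. Many of these genes are also expressed by monocytes and macrophages, whose markers rose on the same arrays. Of 11 macrophage markers tested, 6 rose (median 2.27), and the summed signal of the 11 was 10970 to 14812 in WT and 35911 to 58040 in Smad4-KO. The largest part of that sum was Csf1r, which did not pass (adjusted p = 0.154 in limma). It read 6029 and 3087 in WT against 9588 and 22040 in Smad4-KO. Cd163 (-0.56) and Mertk (-0.36) had negative log2 differences and did not pass. These 3 genes were named after their values were seen. Of 5 monocyte markers, 3 rose (median 3.79), with summed signals of 3425 to 4155 and 16802 to 39424. Cd68, a lysosomal protein of macrophages, read 283 and 208 in WT against 2434 and 2874 in Smad4-KO (adjusted p = 0.0128). The part of macrophages and monocytes in the neutrophil results was not tested.

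Genes of primary granules are transcribed in promyelocytes and little in mature neutrophils. The list of such genes also held Ctsc and Srgn (named after its values were seen). These were bright in WT, at 2286 and 2645 and at 5036 and 3005. Both Smad4-KO pools were higher than both WT pools for 7 of 7 probe sets, where 24.5% of all 18193 genes did so. Of the 5 tested, 2 rose, against 4.92% of all genes tested. Mpo, myeloperoxidase, rose from 46.8 and 59.7 in WT to 278 and 269 in Smad4-KO (log2 difference 2.37 ± 0.31, adjusted p = 0.0193). Ctsc, the protease that activates the granule serine proteases and is found in many tissues, rose 4.88-fold (2.29 ± 0.32, adjusted p = 0.0218), with the call lost under 6 of 14 alternatives. Elane, neutrophil elastase, read 22.1 and 17.1 in WT against 109 and 56.7 in Smad4-KO, too dim for the fit. Prtn3 and Ctsg, further serine proteases of these granules named after their values were seen, read 53.6, 11.4, 487 and 262 (Prtn3, adjusted p = 0.0526) and 2.47, 2.85, 96.1 and 74.9 (Ctsg, not tested) on WT replicates 1 and 2 and Smad4-KO replicates 1 and 2.

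Of the further secondary and tertiary granule genes, 6 of 10 tested rose. Chil3, a chitinase-like protein of neutrophils and macrophages, read 61.4 and 62.5 in WT against 1445 and 3360 in Smad4-KO (log2 difference 5.15 ± 0.47, adjusted p = 0.0125). Cybb, the catalytic subunit of the phagocyte NADPH oxidase, rose 12.4-fold (3.64 ± 0.46, adjusted p = 0.0182), and Lyz2, lysozyme, rose 5.50-fold (2.46 ± 0.33, adjusted p = 0.0204). Mmp9, the gelatinase of tertiary granules, read 79.2 and 102 in WT against 321 and 577 in Smad4-KO (2.26 ± 0.40, adjusted p = 0.0373), and lost its call under 6 of 13 alternatives. Of the 13 further genes of these granules with a probe set, 7 were higher on Smad4-KO replicate 1, Lyz2 among them, and the others, with Chil3, Cybb and Mmp9, on Smad4-KO replicate 2.

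Among further surface receptors, 7 of 11 tested rose, with a median log2 difference of 3.77. Clec4d, a C-type lectin receptor of myeloid cells, read 27.9 and 111 in WT against 2089 and 4144 in Smad4-KO (5.73 ± 0.73, adjusted p = 0.0187). With the 64 floor Clec4d rose at least 35.0-fold. Fcgr4, an activating IgG receptor, read 63.8 and 101 in WT against 1909 and 5085 in Smad4-KO (5.28 ± 0.55, adjusted p = 0.0136). Clec4e, the lectin Mincle, rose at least 15.5-fold with the 64 floor (4.38 ± 0.45, adjusted p = 0.0136). Smad4-KO replicate 1 was the higher pool for 1 of the 12 receptors with a probe set, in contrast to 6 of the 9 neutrophil genes above, a difference that was not tested. Ly6g, which defines mouse neutrophils, had no probe set with a single symbol.

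Of the list of further cytosolic and enzyme genes, which also holds the membrane proteins Mcemp1 and Ifitm6, 8 of 13 tested rose. Mcemp1, the mast cell-expressed membrane protein, rose at least 6.11-fold (3.81 ± 0.46, adjusted p = 0.0175) and lost its call with the 64 floor (adjusted p = 0.0507). Ifitm6, an interferon-induced transmembrane protein of myeloid cells, rose at least 7.54-fold (3.52 ± 0.61, adjusted p = 0.0355), a call that ended under 6 of its 13 alternatives. Ncf1, an organising subunit of the NADPH oxidase, rose 10.1-fold (3.34 ± 0.38, adjusted p = 0.0157).

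The ligands of the receptors were examined next. Csf3, which encodes G-CSF, the ligand of Csf3r, read 47.9 and 17.3 in WT against 9.87 and 43.0 in Smad4-KO, so it stayed under 64 on every array and the genotypes overlapped. Of the named chemokines that bind Cxcr2, Cxcl2 and Cxcl5 rose and Cxcl1 did not pass. The WT geometric means of Cxcl2 (29.9) and Cxcl5 (17.1) lay under the filter on low signal (50.01). Both were therefore tested only because their Smad4-KO signals were high, whereas Cxcl1 was above the filter in both genotypes. Cxcl2 read 27.3 and 32.8 in WT against 436 and 1903 in Smad4-KO (4.93 ± 0.71, adjusted p = 0.0225). With the 64 floor it rose at least 14.2-fold and its call ended (adjusted p = 0.0622). Cxcl5 read 6.34 and 46.1 in WT against 372 and 811 in Smad4-KO (5.01 ± 0.97, adjusted p = 0.0471), at least 8.59-fold with the 64 floor. The call of Cxcl5 ended under 8 of its 13 alternatives. Cxcl1 read 378 and 317 in WT against 1024 and 2677 in Smad4-KO (2.26 ± 0.51, adjusted p = 0.0712, with 0.017 to 0.278 over its 14 alternatives). Timp1, the inhibitor of Mmp8 and other metalloproteinases, rose 8.98-fold (3.17 ± 0.63, adjusted p = 0.0486), a call that ended under 7 of its 14 alternatives. Of the 16 ligands and partners with a probe set, 3 were higher on Smad4-KO replicate 1, and Cxcl1, Cxcl2, Cxcl5 and Timp1 were higher on Smad4-KO replicate 2, as were S100a8, S100a9 and Csf3r.

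Over the ligands and partners, 6 of 13 tested rose and 0 fell, and of 8 granulocyte transcription factors 1 rose and 0 fell. That was Runx1, a factor of blood cell formation, at 35.9 and 37.2 in WT against 228 and 986 in Smad4-KO (3.70 ± 0.70, adjusted p = 0.0441). With the 64 floor Runx1 rose at least 7.40-fold and its call did not hold (adjusted p = 0.115). Runx1, with a WT geometric mean of 36.5, also passed the filter on low signal only through its Smad4-KO signals. Cebpe, the factor that secondary granule genes depend on, had no probe set with a single symbol. The 7 calls of both lists together fell to 1 without WT replicate 1 and to 0 without WT replicate 2.

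The rest of the S100 family was set beside S100a8 and S100a9. Of 11 further S100 genes with a probe set, 7 were tested. None of the 7 passed in limma (0 calls, and 0 of them at an unadjusted p under 0.05), and their median log2 difference was -0.27. S100a1, found in muscle, had a log2 difference of -0.92 ± 0.59 (adjusted p = 0.521), and S100b, found in glia and fat, one of 0.58 ± 0.35 (adjusted p = 0.493). The family shared the order of the WT pools with S100a8 and S100a9: WT replicate 1 was higher for 11 of 11 genes, by a median log2 difference of 1.05. However, 3 of the 11 (S100a3, S100a14 and S100g) were under 64 on every array, and the WT signals of S100a14 hardly differed (4.25 and 4.24). In Smad4-KO, replicate 1 was the higher for 4 of the 11. WT replicate 1 and Smad4-KO replicate 2 had the high 3' to 5' ratio, whose part in this order was not tested.

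Markers of other cell types were measured on the same arrays. Of the red cell markers, 3 were tested and 0 passed in limma (0 also at an unadjusted p under 0.05), and 4 of the 8 with a probe set (Epb42, Rhag, Hba-a1 and Hemgn) were under 64 on every array. Alas2, the haem synthesis enzyme of red cell precursors, read 771 and 312 in WT against 706 and 227 in Smad4-KO. The summed red cell signal was 783 to 1217 in WT and 499 to 1380 in Smad4-KO. Of 6 platelet markers, 1 rose, the receptor Clec1b (2.93 ± 0.52, adjusted p = 0.0377), which lost its call under 9 of 13 alternatives, the 64 floor among them (adjusted p = 0.0515). In limma, 3 of the 6 platelet markers had an unadjusted p under 0.05, and the median log2 difference of the 6 was 1.14. Of 6 T and B cell markers, 1 rose, Cd3d of the T cell receptor complex (2.33 ± 0.37, adjusted p = 0.0293, lost under 6 of 13 alternatives). In limma, 4 of these 6 had an unadjusted p under 0.05, and their median log2 difference was 1.84. Among all 13645 genes tested, 2634 had an unadjusted p under 0.05. Of 5 eosinophil and mast cell markers tested, 0 passed in limma (0 also at an unadjusted p under 0.05). Of 6 epithelial markers, 1 rose, the cadherin Cdh1 (3.54 ± 0.31, adjusted p = 0.0125). Cdh1 read 31.7 and 24.9 in WT against 352 and 303 in Smad4-KO, at least 5.10-fold with the 64 floor. It passed the filter on low signal only through its Smad4-KO signals. Of 8 endothelial markers 0 passed in limma, with 1 at an unadjusted p under 0.05. Of 8 smooth muscle markers 4 fell and 0 rose.

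**Figure D4:**
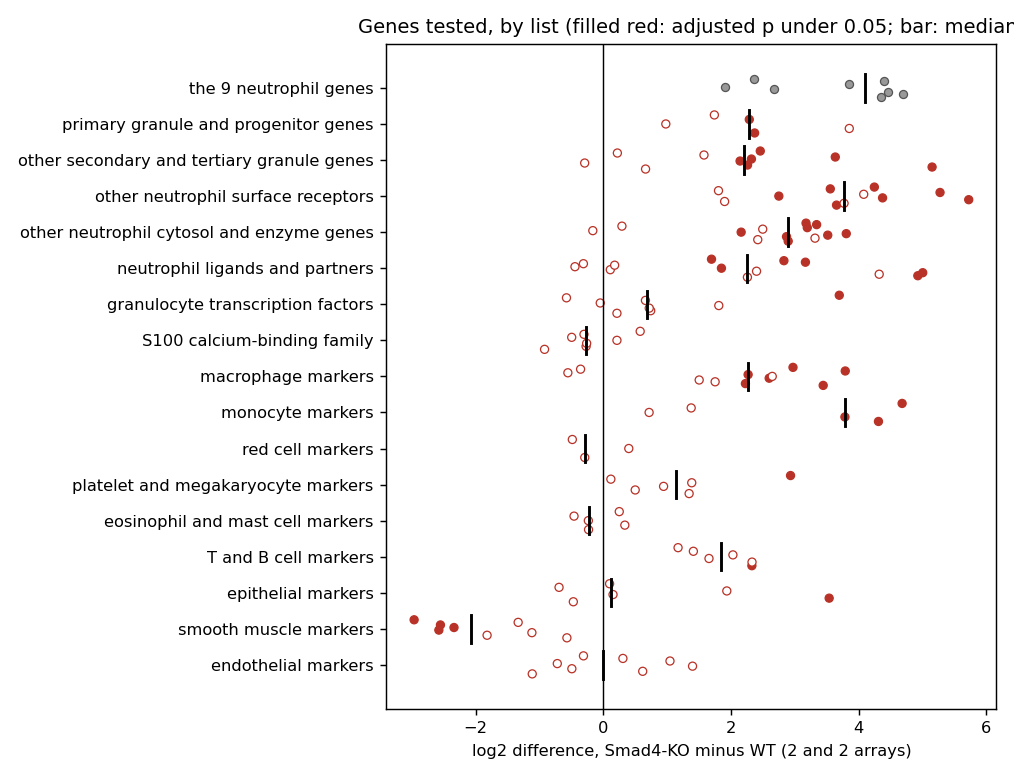
Log2 difference, Smad4-KO minus WT, of the genes tested in each list, with a bar at the median of the list and filled red points for an adjusted p under 0.05 (limma). The 8 neutrophil genes tested, in grey without a test, lie between 1.91 and 4.70, further neutrophil receptors have a median of 3.77, red cell markers one of -0.29 and smooth muscle markers one of -2.08.

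The genes whose 4 values were most like the mean profile of the 9 genes, by Euclidean distance between log2 values after each gene's own mean was taken off, were Blnk (0.30), Fam78a (0.32), Pirt (0.33), Coro1a (0.35) and Itgb2 (0.38), among 13637 genes. Coro1a, an actin-binding protein of white blood cells, read 344 and 164 in WT against 2967 and 3137 in Smad4-KO. Itgb2, the beta subunit of the leukocyte integrins, read 338 and 156 in WT against 2546 and 2868 in Smad4-KO. Blnk is an adaptor of B cells and macrophages, and Pirt a regulator of ion channels in sensory neurons, so the 5 genes are not of 1 cell type. Both WT signals were under 64 for Fam78a (35.3 and 11.9) and Pirt (55.6 and 17.0). The 9 genes lay at 0.67 (Cxcr2) to 2.30 (Camp) from their own mean profile. The 5 genes were picked as the nearest of all those ranked, so nothing is read from their smaller distances.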

How the data were processed

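Expression was measured on 4 Affymetrix arrays, 2 per genotype. The authors deposited linear intensity values per probe set. The submitters' processing notes name Affymetrix Expression Console and RMA, with no version, but these values are not of the form RMA gives: every array has a mean of 500 once 2% of its probe sets are trimmed at either end, and 253 to 324 values per array are below 1. No genome build or detection call is given in the sources used here. Of 45101 probe sets, 34945 were paired with 1 gene symbol. The brightest probe set on average stood for a gene, and genes with a mean under the 25th percentile (a signal of 50.01) were left out, which left 13645. That mean was over all 4 arrays, so a gene dim in WT could pass through its Smad4-KO signals alone. Csf3r, Camp, Cxcl2, Cxcl5, Runx1 and Cdh1 were among such genes. The fit was limma 3.58.1 in R 4.3.3 (lmFit and eBayes, genotype as the only term, two-sided, Benjamini-Hochberg adjustment, threshold 0.05), tested on simulated data. P-values rest on the spread between the arrays of a genotype, moderated over genes by eBayes. With 1 array per pool, that spread holds differences between pools and between arrays, such as labelling, which cannot be told apart. The number of arrays limits the precision. Tables and figures used Python 3.11.15, pandas 2.3.3, numpy 2.4.6 and matplotlib 3.10.9. Folds written "at least" have signals under 64 raised to 64. The genes, lists and alternatives were chosen with earlier results of these data known. Named are the 9 genes, up to 3 called genes per list by size (else the 2 of lowest p), a fixed set of ligands and markers, and the 5 most similar genes. Same-numbered arrays did not deviate together across genes (correlation -0.01), and the labels do not say that a number is shared.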

Additional observations from a re-analysis of the deposited data

How the results depend on the processing

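The count of all genes called (861) was 1321 with the replicate block, 518 with the mean of probe sets, 181 with every probe set, 0 with no filter and 0 with the labelling pair block, and 0 to 808 when an array was left out. Further neutrophil genes called (23) numbered 0 with no filter and with the labelling pair block, 5 with every probe set, and 0 to 23 with an array left out. The 7 ligands, partners and transcription factors became 11 with the replicate block, 3 with the mean of probe sets, 2 with every probe set, 4 with the 64 floor, 0 with no filter and with the labelling pair block, and 0 to 6 with an array left out. The 6 of the main neutrophil genes called became 0 with no filter and with the labelling pair block, 2 with every probe set, and 0 to 6 with an array left out. With no filter, 2788 genes had an unadjusted p under 0.05, with the labelling pair block 2658 and without WT replicate 2 1791. The median log2 difference of the 9 genes was 2.67 with the 64 floor and 3.36 to 4.82 with an array left out, and each of the 9 kept a positive difference under its 11 alternatives. The labels do not say whether array numbers pair the samples, although Xist was high on both arrays numbered 1. The larger counts with the replicate block are therefore not read as evidence of a stronger effect. Of 517 values of named genes under alternatives, 361 kept their direction and side of the threshold, 145 lost the call, 5 gained it and 6 changed sign. The last were of genes that did not pass, when an array was left out: Alas2 (-1.11 to 0.53), Slc4a1 (-0.47 to 1.26), Cma1 (-0.11 to 0.78) and Hba-a2 (-1.10 to 0.13). With 1 array left in a genotype, limma takes its spread from the other. The causes of these changes were not tested. Signals under 64 limit the size of the differences of Cxcr2, Camp, Csf3r, Lcn2, Mmp8 and Ltf. They also limit those of further named genes, Cxcl2, Cxcl5, Runx1 and Cdh1 among them.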
